A study of Mus musculus with 2 samples.

Results

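The 48 genes described here encode cytochrome P450 enzymes and carboxylesterases, and they were followed across the cell classes, villus zones and intestinal segments of the small intestinal epithelium of 1 mouse. They are the genes of the expression table named Cyp plus a number, letters and a number, or Ces plus a number and a letter, that had at least 20 UMIs (unique molecular identifiers, each counting 1 captured RNA molecule) over all barcodes. Of 55401 genes in the table, 113 carried such a name. No UMI was counted for 31 of them, and 34 had between 1 and 19. Just inside the minimum were Cyp3a44 with 20 UMIs, Ces1b with 21 and Ces2b with 25, and just outside it were Cyp4a10 with 18, Cyp2j5 with 17 and Cyp2c70 with 16. Levels were not used in the choice beyond this minimum.

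The mouse was 55 weeks old and carried the TrnA mutation of mitochondrial DNA (mtDNA), in the gene for the mitochondrial alanine tRNA, at a mutation load of 73%. Epithelial cells of the whole small intestine were stained for CD326 (an epithelial surface protein), CD45, CD31 and TER-119 and sorted by flow cytometry. RNA and open chromatin (ATAC) were read in the same fixed cells with the 10x Multiome kit, in a form adapted to retain mtDNA, so that both libraries share all 12363 barcodes. The sorting gates and any treatment of the mouse are not given in the labels, although the title of the series speaks of acute colitis, and no animal without the mutation was analysed here. Every comparison below is therefore between cells of 1 mouse, so neither the mutation's effect nor the spread between animals was measured. Intervals are 95% intervals for counting error only, and no test over samples was possible.

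Cytochrome P450 enzymes are haem proteins of the endoplasmic reticulum or mitochondria that insert oxygen into drugs, plant compounds, fatty acids, sterols and vitamins, with electrons supplied by the reductase POR. Carboxylesterases cleave ester and amide bonds of drugs, pesticides and acylglycerols. In the gut wall both families act on compounds as they are absorbed, before the liver meets them, and the CYP3A enzymes of enterocytes are known for this first-pass metabolism. Several of these genes are known targets of ligand-activated receptors, among them PXR and CAR, which respond to drugs and bile acids, and AHR, which responds to plant indoles and pollutants.

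The members comprised 5 CYP3A genes, 18 genes of the CYP1 and CYP2 families, 9 CYP4 genes, 4 P450 genes of sterols, vitamin D or no known substrate, 6 CES1 genes and 6 CES2 genes. Many are neighbours: 13 lay on chromosome 8, where the CES1 and CES2 genes stand, 8 on chromosome 19 (the Cyp2c genes), 7 on chromosome 17 (6 Cyp4f genes and Cyp39a1) and 5 on chromosome 5 (the Cyp3a genes). Such neighbours include close copies, and how reads shared by copies were assigned is not given in the sources used here, so levels of single Cyp2c, Cyp3a, Cyp4f and Ces genes carry that uncertainty. In the 9872 cells kept, the members had 42455 UMIs, and 28 of them had at least 200.

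Cells were grouped without the members' counts. The clusters were named from marker genes into 2874 enterocyte-like cells (absorptive cells of the villus), 2169 crypt progenitor-like cells (stem-like and cycling clusters), 1497 goblet-like, 284 Paneth-like, 216 enteroendocrine-like, 99 tuft-like and 28 lymphocyte-like cells, and 2705 cells stayed unnamed. Levels are given in CPM, here the UMIs of a gene per 1000000 nuclear-encoded UMIs of a class. Enterocyte-like cells had a median of 951 nuclear-encoded UMIs and crypt progenitor-like cells 2580, while 78.3% of the UMIs of enterocyte-like cells and 57.0% of those of crypt progenitor-like cells came from mtDNA. Counted on UMIs of all kinds, the log2 ratio of every gene between these classes is lower by 0.99. RNA of enterocytes was counted in every class: the 17 enterocyte markers summed to 36110.2 CPM in enterocyte-like cells, 4064 in crypt progenitor-like, 7548 in goblet-like, 3429 in Paneth-like, 5455 in enteroendocrine-like, 3318 in tuft-like and 5217 in lymphocyte-like cells. Hepatocyte markers, which would accompany liver RNA, summed to 9.85 CPM in enterocyte-like, 10.4 in crypt progenitor-like and 31.9 in goblet-like cells. They summed to 5.89 in Paneth-like, 32.4 in enteroendocrine-like and 3.49 in tuft-like cells. The part of enterocyte RNA in the members' levels outside enterocyte-like cells, and of liver RNA in any class, was not tested. The doublet caller marked none of the 9872 cells and so did not work here, and doublets remain. Median doublet scores were above 0.1 in 1 goblet-like cluster of 261 cells and 1 cycling cluster of 197 cells, and these are called doublet-rich here. Without the cycling one, 5 of the 28 members with at least 200 UMIs fell by over 1.5 times in the crypt progenitor-like level, and without the goblet-like one 17 of the 28 did so in the goblet-like level. The share of all genes that fell as far is not given here, so these counts cannot set the members apart from other genes. The goblet-like levels below include that cluster.

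Most members with many UMIs were highest in enterocyte-like cells. Of the 28 members with at least 200 UMIs, 20 had their highest level there (over all 9672 nuclear genes with as many UMIs, 22.3%), 3 each in crypt progenitor-like and enteroendocrine-like cells, and 1 each in goblet-like and tuft-like cells. For Ces1e, Ces2g, Cyp20a1, Cyp2c68, Cyp39a1, Cyp2j6, Cyp2u1 and Cyp4f13 the intervals of the highest and second class overlapped. Their highest class is therefore not resolved. A member was called different between a pair of classes when the levels differed at least 2-fold, the interval of the ratio excluded equality and both classes together had at least 20 UMIs. Between enterocyte-like and crypt progenitor-like cells, 42 of the 48 members had enough UMIs, 26 were higher in enterocyte-like cells and 8 were lower. By the same rule 14.4% of all nuclear genes with enough UMIs were higher and 34.4% were lower. The median log2 ratio was 2.03 over the members and -0.51 over all those genes. After thinning each cell to 500 nuclear-encoded UMIs, 22 of 29 members with enough UMIs were higher and 2 lower, where 14.9% of all genes were higher and 31.3% lower. With a minimum of 50 UMIs over both classes, 5 of the 8 members were still lower (all genes 34.1%). By family, 3 of 3 CYP3A genes, 13 of 17 CYP1 and CYP2 genes, 4 of 9 CYP4 genes, 3 of 5 CES2 genes, 2 of 4 CES1 genes and 1 of 4 sterol, vitamin D and orphan genes were higher.

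**Figure D1:**
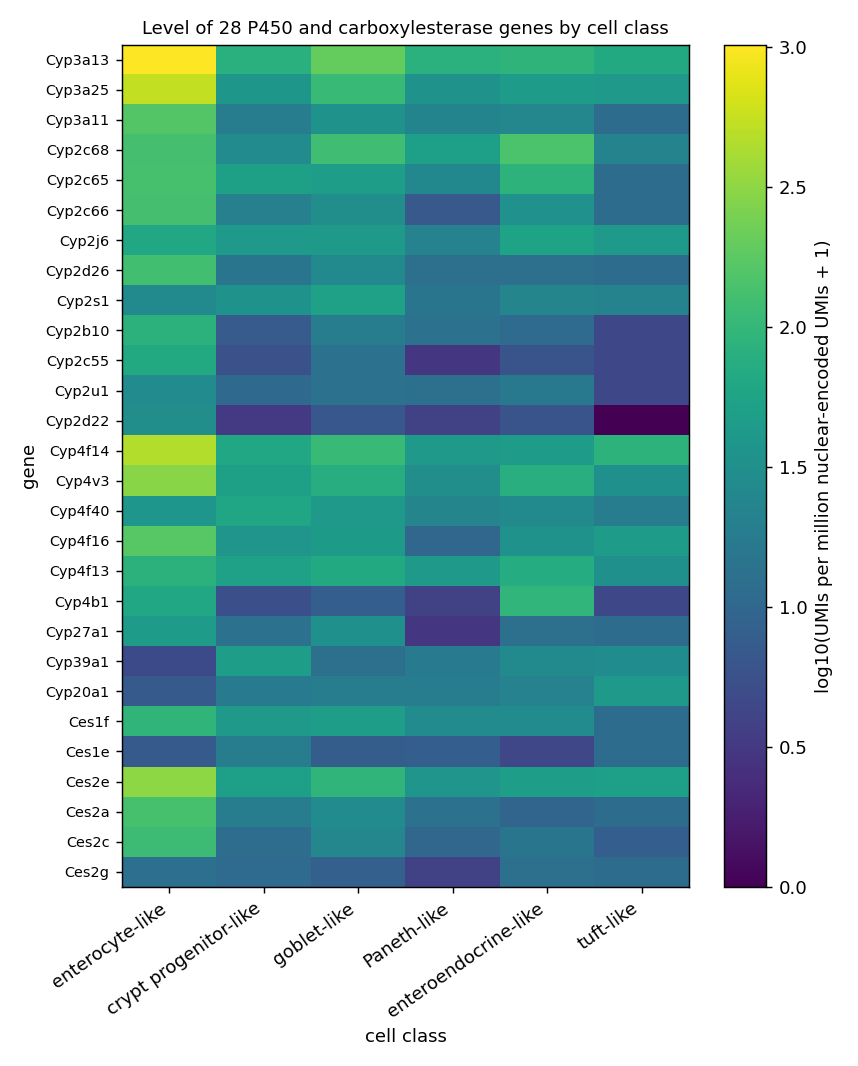
Level of the 28 members with at least 200 UMIs (rows, by family) in 6 cell classes (columns), as the log10 of CPM plus 1. The enterocyte-like column is brightest for 20 genes, while Cyp39a1, Cyp4f40 and Ces1e are brightest in crypt progenitor-like, Cyp4b1, Cyp2c68 and Ces2g in enteroendocrine-like, Cyp2s1 in goblet-like and Cyp20a1 in tuft-like cells. For some of these genes, named in the text, the intervals of the highest and second class overlap.

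The CYP3A genes, whose products oxidise a wide range of drugs and bile acids, include 3 that were higher in enterocyte-like cells than in every other class. Cyp3a13, the CYP3A gene best known from mouse intestine, stood at 1023 CPM in enterocyte-like cells, 81.2 in crypt progenitor-like, 198 in goblet-like, 82.5 in Paneth-like, 88.7 in enteroendocrine-like and 66.4 in tuft-like cells. Its level in enterocyte-like cells was 12.6-fold that of crypt progenitor-like cells (log2 interval 3.52 to 3.79). In the cycling cluster with high doublet scores Cyp3a13 stood at 333 CPM and in the stem-like cluster at 35.9, and without it the crypt progenitor-like level was 43.8 and the ratio 23.4-fold. Cyp3a25 stood at 538 CPM in enterocyte-like cells, 38.4 in crypt progenitor-like, 106 in goblet-like, 33.4 in Paneth-like, 44.3 in enteroendocrine-like and 41.9 in tuft-like cells, a 14.0-fold difference between enterocyte-like and crypt progenitor-like cells, or 30.1-fold without that cluster. Cyp3a11, a PXR target and the mouse counterpart most often set beside the human drug-metabolising CYP3A enzyme, stood at 159 CPM in enterocyte-like cells, 17.2 in crypt progenitor-like, 32.9 in goblet-like, 21.6 in Paneth-like, 23.9 in enteroendocrine-like and 10.5 in tuft-like cells. It was 9.24-fold higher than in crypt progenitor-like cells, or 14.1-fold without that cluster. Cyp3a59 and Cyp3a44 had too few UMIs for this comparison.

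Among the CYP2 genes, Cyp2b10, the standard target gene of CAR in mouse liver, stood at 85.9 CPM in enterocyte-like cells, 6.23 in crypt progenitor-like, 17.5 in goblet-like, 12.8 in Paneth-like, 10.2 in enteroendocrine-like and 3.49 in tuft-like cells. Its 13.8-fold difference from crypt progenitor-like cells became 33.6-fold without the doublet-rich cluster. Cyp2c55, an arachidonic acid hydroxylase, stood at 66.9 CPM in enterocyte-like cells, 4.6 in crypt progenitor-like, 12.4 in goblet-like, 1.96 in Paneth-like, 5.12 in enteroendocrine-like and 3.49 in tuft-like cells, 14.6-fold higher in enterocyte-like than in crypt progenitor-like cells. Cyp2d26 stood at 126 CPM in enterocyte-like cells, 13.9 in crypt progenitor-like, 25.9 in goblet-like, 11.8 in Paneth-like, 11.9 in enteroendocrine-like and 10.5 in tuft-like cells. Cyp2d22 stood at 30.1 CPM in enterocyte-like and 2.22 in crypt progenitor-like cells, with 5.62 in goblet-like, 2.95 in Paneth-like, 5.12 in enteroendocrine-like and 0 in tuft-like cells, where the floor of 3 UMIs is 10.5 CPM. The CYP2D genes encode drug oxidases, and these members were 9.03-fold and 13.5-fold higher in enterocyte-like than in crypt progenitor-like cells. Without the doublet-rich cluster the Cyp2d26 ratio was 14.8-fold.

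The Cyp2c genes of chromosome 19, whose products oxidise drugs and polyunsaturated fatty acids, did not share 1 pattern. Cyp2c66 stood at 131 CPM in enterocyte-like cells, 19.3 in crypt progenitor-like, 30.1 in goblet-like, 5.89 in Paneth-like, 32.4 in enteroendocrine-like and 10.5 in tuft-like cells, so that it was 6.79-fold higher in enterocyte-like than in crypt progenitor-like cells. Cyp2c65 was more spread, at 134 CPM in enterocyte-like cells, 50.6 in crypt progenitor-like, 47.1 in goblet-like, 24.6 in Paneth-like, 87.0 in enteroendocrine-like and 10.5 in tuft-like cells, with a ratio of 2.66. Cyp2c68 did not separate enterocyte-like from goblet-like or enteroendocrine-like cells: it stood at 131 CPM in enterocyte-like cells, 27.4 in crypt progenitor-like, 120.2 in goblet-like, 49.1 in Paneth-like, 143 in enteroendocrine-like and 21.0 in tuft-like cells. The intervals of enterocyte-like (119.8 to 143), goblet-like (111 to 130.2) and enteroendocrine-like cells (114 to 177) overlapped. The less captured Cyp2c29, Cyp2c67 and Cyp2c38 had 44, 53 and 34 UMIs in enterocyte-like cells and 2, 8 and 5 in crypt progenitor-like cells. All 3 were called higher in enterocyte-like cells (Cyp2c38 with 2 crypt progenitor-like UMIs and a 25.2-fold ratio without the doublet-rich cluster), Cyp2c29 with a wide log2 interval of 3.29 to 8.32. Cyp1a1, the standard AHR target, was 8.75-fold higher, at 19.5 CPM in enterocyte-like and 2.22 in crypt progenitor-like cells.

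Other CYP2 genes were closer to even. Cyp2j6, an arachidonic acid epoxygenase gene of the gut, stood at 63.4 CPM in enterocyte-like cells, 40.2 in crypt progenitor-like, 41.5 in goblet-like, 20.6 in Paneth-like, 54.6 in enteroendocrine-like and 41.9 in tuft-like cells, and was called only against Paneth-like cells, at 3.07-fold. Cyp2u1, a fatty acid hydroxylase, stood at 27.0 CPM in enterocyte-like cells, 9.78 in crypt progenitor-like, 12.2 in goblet-like, 11.8 in Paneth-like, 15.3 in enteroendocrine-like and 3.49 in tuft-like cells and was 2.76-fold higher in enterocyte-like than in crypt progenitor-like cells. Cyp2s1, an extrahepatic P450 that responds to AHR, stood at 26.5 CPM in enterocyte-like cells, 34.5 in crypt progenitor-like, 51.6 in goblet-like, 13.8 in Paneth-like, 22.2 in enteroendocrine-like and 21.0 in tuft-like cells. Its highest class was goblet-like cells, whose interval (45.5 to 58.3) lay above that of enterocyte-like cells (21.7 to 32.1), by less than 2-fold. Of the remaining CYP2 members, Cyp2j8 was 5.79-fold higher in enterocyte-like than in crypt progenitor-like cells (10.1-fold without the doublet-rich cluster, on 5 crypt progenitor-like UMIs), Cyp2j9 was not called in any class comparison, and Cyp2c23 had 18 UMIs in enterocyte-like and 0 in crypt progenitor-like cells, too few to be called there. Cyp2e1, the ethanol-oxidising P450 of liver, had 0 UMIs in enterocyte-like and 24 in crypt progenitor-like cells. Set to the floor of 3 UMIs, the enterocyte-like level would be 0.758 CPM, and the crypt progenitor-like level was 4.69-fold above that floor.

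The CYP4 genes, fatty acid and eicosanoid hydroxylases, divided into an enterocyte group and others. Cyp4f14, which hydroxylates leukotriene B4 and vitamin E, stood at 453 CPM in enterocyte-like cells, 60.8 in crypt progenitor-like, 109 in goblet-like, 40.3 in Paneth-like, 44.3 in enteroendocrine-like and 87.3 in tuft-like cells, 7.46-fold higher in enterocyte-like than in crypt progenitor-like cells. Cyp4v3, the counterpart of a human fatty acid hydroxylase gene of retinal dystrophy, stood at 299.9 CPM in enterocyte-like cells, 50.7 in crypt progenitor-like, 75.0 in goblet-like, 29.5 in Paneth-like, 78.4 in enteroendocrine-like and 31.4 in tuft-like cells, a ratio of 5.91. Cyp4f16 stood at 167 CPM in enterocyte-like cells, 36.2 in crypt progenitor-like, 42.5 in goblet-like, 8.84 in Paneth-like, 34.1 in enteroendocrine-like and 45.4 in tuft-like cells, a ratio of 4.62. Cyp4f13 was nearly even by comparison, at 85.9 CPM in enterocyte-like cells, 52.2 in crypt progenitor-like, 65.6 in goblet-like, 41.3 in Paneth-like, 71.6 in enteroendocrine-like and 31.4 in tuft-like cells, and was called only against Paneth-like and tuft-like cells. Of the named classes, Cyp4f40 had its highest level in crypt progenitor-like cells, at 36.9 CPM in enterocyte-like cells, 59.9 in crypt progenitor-like, 40.1 in goblet-like, 22.6 in Paneth-like, 25.6 in enteroendocrine-like and 17.5 in tuft-like cells. The difference between enterocyte-like and crypt progenitor-like cells was under 2-fold. Cyp4f15 (2 UMIs in enterocyte-like and 34 in crypt progenitor-like cells) and Cyp4a32 (1 and 24 UMIs in the same order) were called lower in enterocyte-like cells from few UMIs. Cyp4f17 had 7 UMIs in enterocyte-like and 26 in crypt progenitor-like cells and was not called.

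Cyp4b1, which oxidises fatty acids and plant furans, stood at 60.6 CPM in enterocyte-like cells, 4.45 in crypt progenitor-like, 7.02 in goblet-like, 2.95 in Paneth-like, 95.5 in enteroendocrine-like and 3.49 in tuft-like cells. Enteroendocrine-like cells (interval 72.1 to 124) were above enterocyte-like cells (interval 53.2 to 68.8) by less than 2-fold, while goblet-like cells were 8.63-fold below enterocyte-like cells, or 27.9-fold on 7 UMIs without the doublet-rich cluster. Within the class, the cluster led by Rfx6, Sst and Gip, genes of peptide hormone cells, had 109 CPM (interval 81.8 to 143), and the cluster led by Tph1, of serotonin cells, had 29.6 (interval 6.10 to 86.5). Enterocyte markers summed to 5100.4 CPM in the Sst cluster and 36110.2 in enterocyte-like cells. The part of enterocyte RNA in the Cyp4b1 level of the Sst cluster was not tested. The Tph1 cluster has 43 cells.

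Of the CES2 genes, intestinal carboxylesterases of drug esters and acylglycerols, Ces2e, Ces2a and Ces2c were higher in enterocyte-like cells than in every other class. Ces2e stood at 312 CPM in enterocyte-like cells, 49.4 in crypt progenitor-like, 93.3 in goblet-like, 36.4 in Paneth-like, 46.0 in enteroendocrine-like and 48.9 in tuft-like cells, 6.32-fold higher in enterocyte-like than in crypt progenitor-like cells. Ces2a stood at 133 CPM in enterocyte-like cells, 17.9 in crypt progenitor-like, 27.1 in goblet-like, 12.8 in Paneth-like, 8.53 in enteroendocrine-like and 10.5 in tuft-like cells, a ratio of 7.44. Ces2c, which hydrolyses acylglycerols in mouse, stood at 116 CPM in enterocyte-like cells, 11 in crypt progenitor-like, 23.9 in goblet-like, 8.84 in Paneth-like, 13.6 in enteroendocrine-like and 6.99 in tuft-like cells, a ratio of 10.6. Ces2g stood at 11.6 CPM in enterocyte-like cells, 10.2 in crypt progenitor-like, 7.42 in goblet-like, 2.95 in Paneth-like, 11.9 in enteroendocrine-like and 10.5 in tuft-like cells and was called only against Paneth-like cells, and Ces2h and Ces2b had 69 and 24 UMIs in all kept cells. Without the doublet-rich cluster the Ces2e ratio was 7.25.

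The CES1 genes differed among themselves. Ces1f stood at 92.5 CPM in enterocyte-like cells, 40.5 in crypt progenitor-like, 47.6 in goblet-like, 27.5 in Paneth-like, 27.3 in enteroendocrine-like and 10.5 in tuft-like cells, and was 2.28-fold higher in enterocyte-like than in crypt progenitor-like cells. Ces1e, known as egasyn from its role in holding a glucuronidase in the endoplasmic reticulum, stood at 6.06 CPM in enterocyte-like cells, 17.6 in crypt progenitor-like, 6.82 in goblet-like, 6.88 in Paneth-like, 3.41 in enteroendocrine-like and 10.5 in tuft-like cells. Ces1d, a triacylglycerol hydrolase of adipose tissue and liver, had 12 UMIs in enterocyte-like and 83 in crypt progenitor-like cells. Ces1e was 2.91-fold and Ces1d 4.06-fold lower in enterocyte-like cells. Ces1c, the esterase of mouse plasma, had 1 UMI in enterocyte-like cells, 26 in goblet-like and 16 in Paneth-like cells, which hold defensin granules. In CPM that was 0.253, 5.22 and 15.7. Ces1g was 2.88-fold higher in enterocyte-like than in crypt progenitor-like cells on 22 and 13 UMIs, and Ces1b had 18 UMIs in all.

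The sterol, vitamin D and orphan genes were mostly lower in enterocyte-like cells. Cyp39a1, an oxysterol hydroxylase of bile acid synthesis, stood at 3.79 CPM in enterocyte-like cells, 48.0 in crypt progenitor-like, 11.8 in goblet-like, 15.7 in Paneth-like, 25.6 in enteroendocrine-like and 27.9 in tuft-like cells, so that enterocyte-like cells were 12.7-fold below crypt progenitor-like cells (log2 interval -4.52 to -2.92). It was lower in enterocyte-like cells in each of the 5 class comparisons, on 16 Paneth-like, 15 enteroendocrine-like and 8 tuft-like UMIs. Cyp20a1, which has no known substrate, stood at 6.06 CPM in enterocyte-like cells, 16.6 in crypt progenitor-like, 17.3 in goblet-like, 17.7 in Paneth-like, 20.5 in enteroendocrine-like and 41.9 in tuft-like cells, and was also lower in each of the 5. The calls of both genes against Paneth-like, enteroendocrine-like and tuft-like cells are lost with a minimum of 50 UMIs over both classes. Cyp2r1, a vitamin D hydroxylase, had 13 UMIs in enterocyte-like and 48 in crypt progenitor-like cells, a 2.17-fold lower level. Cyp27a1, the mitochondrial sterol hydroxylase, was the exception at 44.0 CPM in enterocyte-like cells, 12.2 in crypt progenitor-like, 31.1 in goblet-like, 1.96 in Paneth-like, 11.9 in enteroendocrine-like and 10.5 in tuft-like cells.

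Against the secretory classes the members were again mostly higher in enterocyte-like cells. Against goblet-like cells 23 of 41 members with enough UMIs were higher (all genes 10.8%) and 5 lower (21.5%). Against Paneth-like cells 28 of 34 were higher (20.6%) and 2 lower (18.1%). Against enteroendocrine-like cells 20 of 35 were higher (13.9%) and 3 lower (24.3%), and against tuft-like cells 23 of 34 were higher (13.4%) and 2 lower (20.0%). The median log2 ratio of the members was 1.54 against goblet-like, 3.24 against Paneth-like, 1.88 against enteroendocrine-like and 3.61 against tuft-like cells, where all genes had -0.22, 0.11, -0.21 and -0.18. The tuft-like levels rest on 99 cells and the enteroendocrine-like levels on 216. Counted on UMIs of all kinds, 14 rather than 23 members were higher against goblet-like cells (all genes 2.76%) and 11 rather than 20 against enteroendocrine-like cells (3.51%), and 3 members called higher against Paneth-like cells (Cyp2c68, Cyp2u1 and Cyp4f13) changed direction. Thinned to 500 nuclear-encoded UMIs a cell, 18 of 27 members were higher against Paneth-like cells (all genes 20.2%) and 14 of 27 against tuft-like cells (9.37%).

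The goblet-like clusters differed among themselves. The cluster led by Gm379 and Hs3st5 (642 cells) and the cluster led by Pdia5 (594 cells) are set side by side for 3 genes. No call was made between these clusters, and other members may differ as well. Cyp27a1 stood at 57.3 CPM (interval 45.3 to 71.5) in the Gm379 cluster and 4.30 (interval 1.86 to 8.48) in the Pdia5 cluster. Cyp2s1 stood at 83.0 and 23.7 CPM in the same order, and Cyp2c68 at 165 and 82.8. The Gm379 cluster was above the enterocyte-like level of Cyp2s1, 26.5 CPM, and Cyp2c68, 131 CPM. For Cyp27a1, at 44.0 CPM in enterocyte-like cells, the intervals overlapped. The Gm379 cluster was below the enterocyte-like level of Cyp3a13, with 134 CPM, Cyp3a25, with 38.2, and Ces2e, with 48.5. Its enterocyte markers summed to 4153 CPM, against 3247 in the Pdia5 cluster, and the part of enterocyte RNA in these levels was not tested. The doublet-rich goblet-like cluster had 14703 CPM of these markers and 369 CPM of Cyp3a13. Without it goblet-like cells had 104 CPM of Cyp3a13 and 34.8 of Cyp3a25, against 198 and 106 with it, which moved the ratios to 9.80 and 15.5. The goblet-like level without it was 47.2 CPM for Ces2e, 12.7 for Ces2a, 14.0 for Ces2c, 21.4 for Ces1f, 42.2 for Cyp4f14, 34.2 for Cyp4v3, 27.3 for Cyp4f16 and 24.5 for Cyp4f40. Of the CYP2 and CYP3A genes it was 11.8 CPM for Cyp2c66, 11.5 for Cyp2d26, 7.76 for Cyp2b10, 5.28 for Cyp2c55, 7.45 for Cyp2u1 and 20.2 for Cyp3a11. Each of these was below the goblet-like level with that cluster by over 1.5 times.

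**Figure D2:**
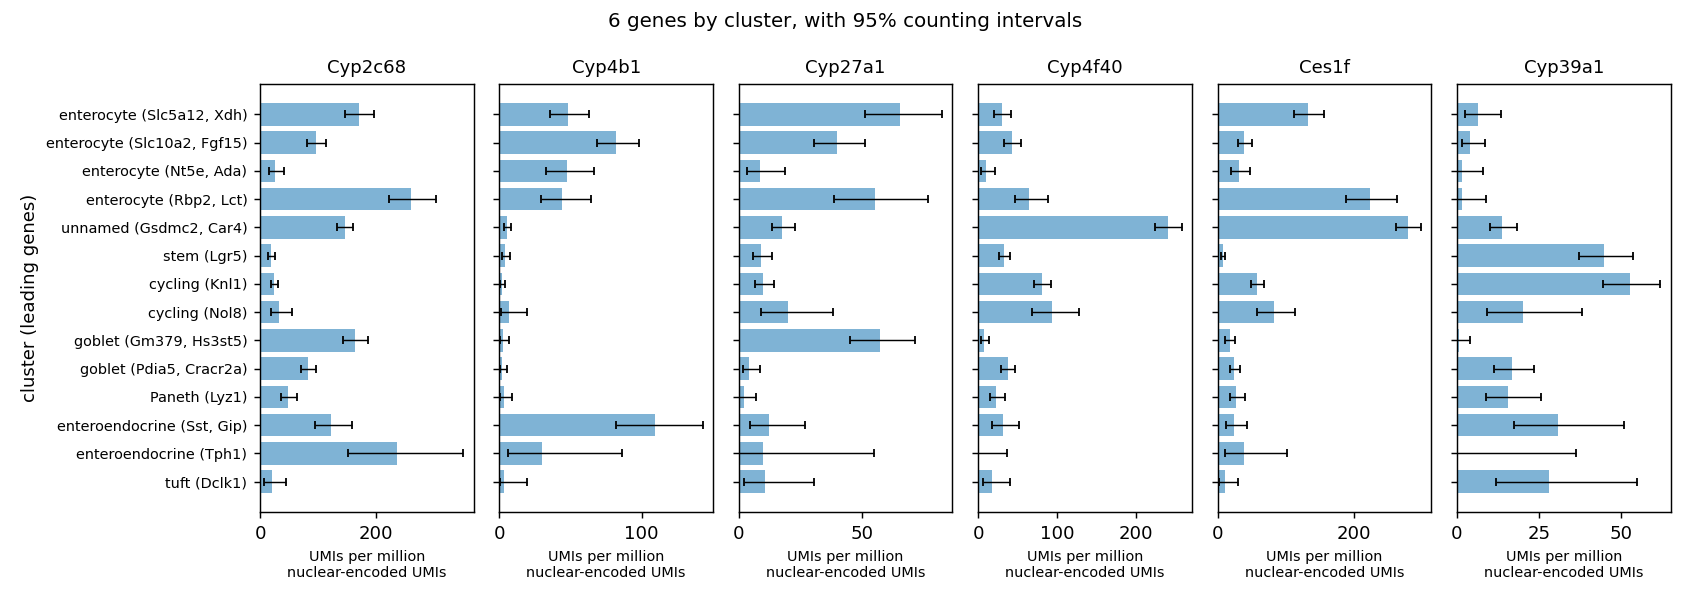
Level (bars, in CPM, from 0) of 6 members in 14 clusters named by class and leading genes; whiskers are 95% counting intervals. Cyp2c68 is shared by enterocyte, goblet and enteroendocrine clusters, Cyp4b1 is highest in the Sst and Gip cluster, Cyp4f40 and Ces1f in the Gsdmc2 and Car4 cluster, and Cyp39a1 in the stem and Knl1 clusters.

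A cluster of 966 cells that no marker list named, led by Gsdmc2, Car4 and Gsdmc3, differed from the enterocyte-like average in several members. Ces1f stood there at 279 CPM (interval 261 to 298), against 92.5 in all enterocyte-like cells and 223 (interval 188 to 263) in their Rbp2 and Lct cluster. Cyp4f40 stood at 239.7 CPM (interval 223 to 257), against 36.9 in enterocyte-like and 59.9 in crypt progenitor-like cells. Ces1e stood at 33.9 CPM, against 6.06 in enterocyte-like cells. Other members were low in this cluster: Cyp3a25 stood at 85.8, Cyp3a11 at 15.2, Cyp2b10 at 10.3 and Cyp2c55 at 4.66 CPM, all below enterocyte-like cells. Cyp2c68 stood there at 146 CPM (interval 133 to 160.3), near its enterocyte-like level, and Cyp4f14 at 243, between its enterocyte-like and crypt progenitor-like levels. Its enterocyte markers summed to 11723 CPM.

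Within the enterocyte-like class, the 4 clusters differed in the members they carried. The cluster led by Rbp2, Fabp1 and Lct (240 cells, proximal genes) had 581 CPM of Ces2e, 223 of Ces1f, 209 of Cyp2b10 and 55.4 of Cyp1a1. The cluster led by Slc10a2 and Fgf15, genes of ileal bile acid uptake (783 cells), had 363 CPM of Ces2e, 38.8 of Ces1f, 43.3 of Cyp2b10 and 4.53 of Cyp1a1. The cluster led by Slc28a2 and Nt5e, purine genes of the villus tip (776 cells), had 1327 CPM of Cyp3a13 and 91.6 of Cyp3a25, where the Slc5a12 and Xdh cluster (1075 cells) had 1223 and 834. Position along the villus and along the gut was then scored from the RNA of genes outside the members.

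Enterocyte-like cells were ranked by genes of the villus tip against genes of the villus base, none of them a member, and cut into 5 zones of 574 or 575 cells from base (zone 1) to tip (zone 5). A zone is a range of a score and not a cell type, and between 115 and 348 of the 2874 cells lay within 0.1 SD of a bound. The zones hold different clusters: 478 of the 574 tip cells were of the Slc28a2 and Nt5e cluster, which had 0 cells at the base, and the Rbp2 and Lct cluster had 0 cells at the tip and 158 at the base. Depth differed along it, with a median of 846 nuclear-encoded UMIs at the tip and 1884 at the base. Between tip and base, 27 members had enough UMIs, 3 were higher at the tip and 15 were lower, where 7.72% of all genes were higher and 20.0% lower. The lower count depended on the setting: 6 members were lower with cells of at least 1000 UMIs (all genes 8.49%) or within the distal range (14.2%), 7 without the cells of the highest doublet scores (9.49%), and 9 without cells above 80% mtDNA-encoded UMIs (794 of 6104 genes). The mtDNA share was 79.8% at the tip and 69.0% at the base, and its part in the result was not tested. The median log2 ratio was -1.24 over the members and -0.32 over all genes. Counted on UMIs of all kinds, which lowers the log2 ratio of every gene by 0.62, 0 members reached 2-fold higher (all genes 3.59%) and 19 were lower (44.3%), and no called member changed direction.

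The CYP3A genes split along the villus. Cyp3a13 had 649, 930.0, 1169, 1376 and 1459.8 CPM in zones 1 to 5, the highest value at the tip, 2.25-fold higher at the tip than at the base (log2 interval 1.04 to 1.30). Cyp3a25 had 661, 775, 639, 365 and 102 CPM in zones 1 to 5, 6.48-fold lower at the tip (log2 interval -3.07 to -2.35). The pair thus ran in opposite directions along the villus. Cyp3a11 had 75.6, 208, 236, 196 and 182 CPM, a step up after zone 1 that left the tip 2.41-fold above the base. Within the proximal range of the gut, taken from a score of distal and proximal genes, the lower, middle and upper part of the villus score had 901, 1361 and 1619 CPM of Cyp3a13 and 945, 767 and 179 of Cyp3a25. Within the distal range they had 531, 955 and 1464 of Cyp3a13 and 478, 378 and 165 of Cyp3a25. The opposite directions were therefore seen in both the proximal and the distal range of that score.

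**Figure D3:**
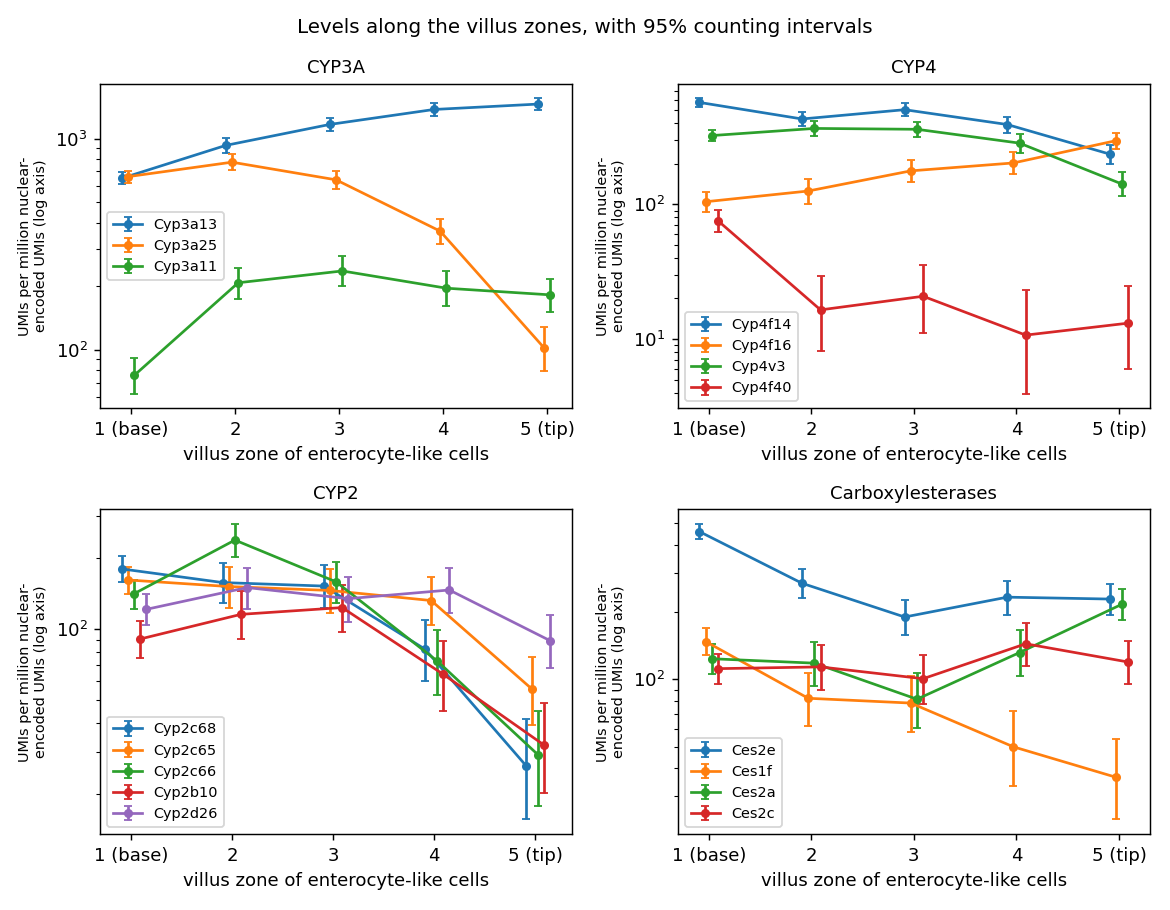
Level of 16 members (points, CPM, log axis) in 5 villus zones of enterocyte-like cells from base to tip; bars are 95% counting intervals. Cyp3a13 and Cyp4f16 are highest in zone 5, Cyp3a25 and the Cyp2c genes fall to their lowest level there, and Cyp4f40 is high in zone 1 alone.

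The CYP4 genes also divided. Cyp4f16 had 105, 126, 177, 203 and 297 CPM in zones 1 to 5 and was 2.84-fold higher at the tip than at the base. Cyp4f14 had 571, 431, 505, 392 and 236 CPM, 2.42-fold lower at the tip. Cyp4v3 had 324, 366, 361, 285 and 141 CPM, 2.29-fold lower at the tip, a direction that turned to a log2 ratio of 0.13 with finer clusters. Cyp4f40 had 75.6, 16.4, 20.8, 10.7 and 13.1 CPM, so that its level was concentrated in zone 1, the zone next to the crypt, and was 5.76-fold lower at the tip.

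The CYP2 genes were lower at the tip wherever they were called. Cyp2c68 had 179, 157, 152, 81.9 and 26.2 CPM in zones 1 to 5, 6.84-fold lower at the tip (log2 interval -3.55 to -2.08). Cyp2c66 had 141, 238, 158, 73.0 and 29.1 CPM, with its highest value in zone 2, and was 4.82-fold lower at the tip. Cyp2c55 had 97.5, 73.3, 73.5, 37.4 and 16 CPM and was 6.08-fold lower. Cyp2c65, Cyp2b10, Cyp2u1, Cyp2s1 and Cyp2j6 were called lower as well, by 2.91-fold, 2.82-fold, 4.64-fold, 4.12-fold and 2.36-fold. For Cyp2b10 the profile was humped, at 90.4, 115, 123, 64.1 and 32.1 CPM. Within the distal range alone the Cyp2c66 ratio was near 1, with a log2 value of 0.08. Cyp27a1 was also humped, at 42.4, 64.3, 70.3, 33.8 and 11.7 CPM, and 3.64-fold lower at the tip. Cyp2d26 had 121, 149.5, 134, 146 and 88.9 CPM and was not called.

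Of the carboxylesterases, Ces1f had 148, 82.2, 78.3, 49.9 and 36.4 CPM in zones 1 to 5 and was 4.05-fold lower at the tip. Ces2e had 458, 269, 190.1, 233 and 229 CPM, at the 2-fold bound with a 2.00-fold lower tip. Ces2a had 124, 118, 81.5, 132 and 217 CPM, its highest value at the tip but under 2-fold above the base, and Ces2c had 112, 114, 101, 144 and 119 CPM, with no zone apart from the others. The CES2 genes were thus not ordered alike along the villus.

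The labels do not split the tissue by segment, so position along the gut was read from a score of distal genes (such as Slc10a2 and Fgf15) minus proximal genes (such as Gata4 and Lct), none of them a member, in 3 ranges of 958 enterocyte-like cells each. Of these cells, 529 and 385 lay within 0.1 SD of the bounds. The ranges also hold different clusters: the Slc10a2 and Fgf15 cluster had 701 cells in the distal and 23 in the proximal range, and the Rbp2 and Lct cluster 1 in the distal and 237 in the proximal range. The score was not independent of villus position: the villus tip list summed to 6024 CPM in the distal, and 12091 in the proximal range. Between the distal and proximal ranges, 30 members had enough UMIs, 0 were higher in the distal range and 9 were lower, where 3.75% of all genes were higher and 3.58% lower. After thinning to 500 nuclear-encoded UMIs a cell, 3 of 24 were lower (all genes 3.76%) and 1 higher (3.25%). With finer clusters, 14 of 33 were lower (6.13%) and 1 higher (4.23%). The median log2 ratio was -0.74 over the members and -0.03 over all genes. Counted on UMIs of all kinds, which raises the log2 ratio of every gene by 0.70, 3 members were higher (all genes 22.3%) and 5 lower (0.822%), and none of the called members changed direction.

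The 9 members lower in the distal range were Ces1f and 8 genes of the CYP1 and CYP2 families. Cyp1a1 had 38.1 CPM in the proximal, 22.7 in the middle and 2.92 in the distal range, on 5 UMIs in the distal and 52 in the proximal range, 13.1-fold lower in the distal range (log2 interval -5.39 to -2.39). Ces1f had 157 CPM in the proximal, 97.5 in the middle and 38.5 in the distal range, 4.07-fold lower in the distal range. Cyp2c66 had 197 CPM in the proximal, 186 in the middle and 49.6 in the distal range, 3.98-fold lower. Cyp2b10 had 140.1 CPM in the proximal, 86.2 in the middle and 42.6 in the distal range, 3.29-fold lower. In each of these 4 genes the middle range lay between the proximal and distal ranges. Cyp2c65 had 194 CPM in the proximal, 125 in the middle and 91.7 in the distal range, 2.12-fold lower. Cyp2c29, Cyp2c38, Cyp2j8 and Cyp2c67 were lower by 5.20-fold, 4.02-fold, 3.77-fold and 3.25-fold, each on 12 or fewer UMIs in the distal range.

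**Figure D4:**
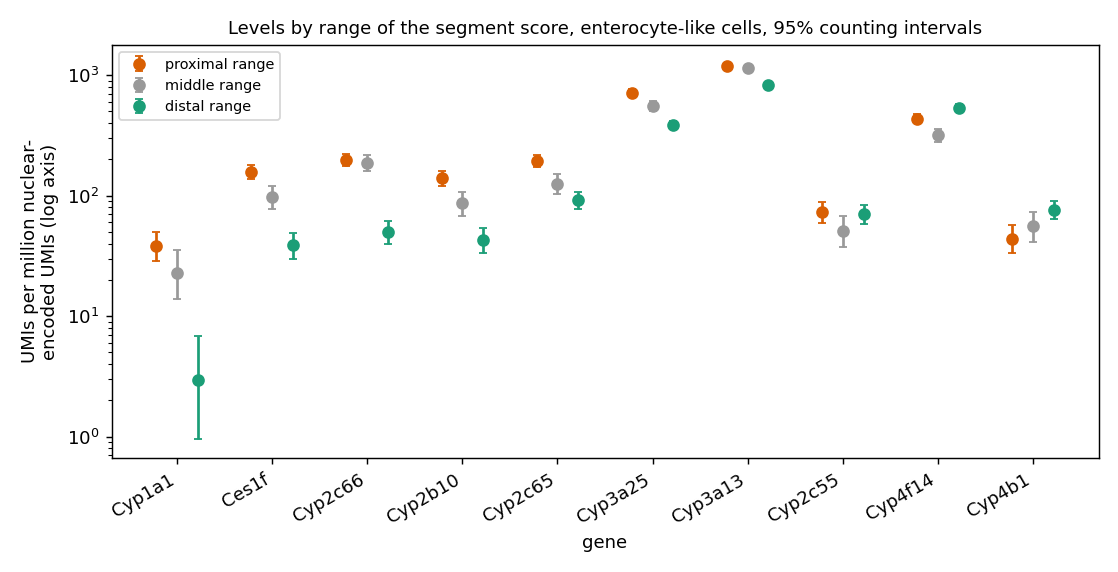
Level of 10 members (points, CPM, log axis) in 3 ranges of the segment score of enterocyte-like cells, proximal to distal; bars are 95% counting intervals. Cyp1a1, Ces1f, Cyp2c66 and Cyp2b10 drop furthest toward the distal range, while Cyp2c55 is alike in the proximal and distal ranges and Cyp4b1 is highest in the distal range.

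Not every Cyp2c gene followed. Cyp2c55, next to Cyp2c65 and Cyp2c66 on chromosome 19, had 73.3 CPM in the proximal, 51.0 in the middle and 70.1 in the distal range, and the distal and proximal intervals (58.1 to 83.8 and 59.7 to 89.2) overlapped. Cyp4b1 was highest in the distal range, with 44.0 CPM in the proximal, 55.5 in the middle and 76.5 in the distal range, a difference under 2-fold. Cyp4f14 had 436 CPM in the proximal, 316 in the middle and 538 in the distal range, Cyp3a13 had 1191 CPM in the proximal, 1140.4 in the middle and 828 in the distal range and Cyp3a25 had 715 CPM in the proximal, 555 in the middle and 388 in the distal range, none of them called. In the lower part of the villus score, Cyp2c66 had 53.9 CPM in the distal and 284 in the proximal range. In the upper part it had 26.7 in the distal and 36.5 in the proximal range. Its segment difference was thus seen in lower villus cells, while in upper villus cells the levels were low in both. Within the upper 2 villus zones, 3 of 20 members with enough UMIs were lower in the distal range (all genes 5.16%) and 1 was higher (4.48%). Within the lower 2 zones 11 of 28 were lower (4.14%) and 0 higher (4.49%). The difference between these counts was not tested.

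Open chromatin at the members' gene starts was read from fragments in peaks within 1 kb. Of the 48 members, 44 had at least 1 such peak, and Ces1c, Cyp2c23, Cyp2c67 and Cyp2j8 had none. Of all nuclear genes, 41.8% had such a peak. That share takes in genes of any UMI count, including genes without UMIs, while members had to pass a UMI minimum. The shares therefore cannot show whether the members have such peaks more often than other genes. No peak was shared between members, and 5 members (Ces2c, Cyp2c55, Cyp2s1, Cyp2u1 and Cyp39a1) had a peak that is also within 1 kb of another gene. The listed start of Cyp1a1 spans 9686 bases and that of Cyp2c29 17670, so their sums take in 3 and 5 peaks. Values are given in FPM, fragments per 1000000 fragments in peaks.

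Promoter sequences are shown for the 4 members that hold an exact match to the HNF4 motif letters CAAAGTCCA, the site of a nuclear receptor of gut and liver, for Cyp3a13, Cyp4f14 and Ces2e, which are among the members with the most UMIs, and for Cyp3a25, whose villus profile ran against that of Cyp3a13. Each runs 5′ to 3′ from 250 bases before the start to 50 bases after it, from RefSeq on GRCm38.p6, with the motif in capitals. The positions are chr5:145879805-145880104, minus strand, for Cyp3a11; chr19:39060756-39061055, plus strand, for Cyp2c65; chr19:39741052-39741351, minus strand, for Cyp2c68 and chr19:39648993-39649292, minus strand, for Cyp2c67. Cyp3a13 is at chr5:137921570-137921869, minus strand, Cyp3a25 at chr5:146009569-146009868, minus strand, Cyp4f14 at chr17:32917307-32917606, minus strand (the 1 of its 4 listed starts that lies furthest upstream) and Ces2e at chr8:104926010-104926309, plus strand.
Cyp3a11: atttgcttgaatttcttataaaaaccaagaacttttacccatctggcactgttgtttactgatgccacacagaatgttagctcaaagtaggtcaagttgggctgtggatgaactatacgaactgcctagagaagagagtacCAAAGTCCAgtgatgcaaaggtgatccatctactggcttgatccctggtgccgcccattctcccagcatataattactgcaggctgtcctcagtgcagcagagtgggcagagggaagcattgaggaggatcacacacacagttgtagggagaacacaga
Cyp2c65: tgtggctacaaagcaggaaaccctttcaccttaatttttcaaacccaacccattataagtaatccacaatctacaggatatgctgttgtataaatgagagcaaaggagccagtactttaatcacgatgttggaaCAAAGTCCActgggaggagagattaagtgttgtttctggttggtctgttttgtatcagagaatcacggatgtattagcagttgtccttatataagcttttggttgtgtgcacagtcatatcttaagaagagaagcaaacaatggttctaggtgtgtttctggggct
Cyp2c68: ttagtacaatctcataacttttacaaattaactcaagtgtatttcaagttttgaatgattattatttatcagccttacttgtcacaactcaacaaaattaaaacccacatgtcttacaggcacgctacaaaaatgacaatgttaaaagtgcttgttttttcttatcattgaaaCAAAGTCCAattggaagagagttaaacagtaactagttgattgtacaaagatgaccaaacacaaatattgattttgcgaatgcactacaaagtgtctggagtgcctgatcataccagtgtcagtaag
Cyp2c67: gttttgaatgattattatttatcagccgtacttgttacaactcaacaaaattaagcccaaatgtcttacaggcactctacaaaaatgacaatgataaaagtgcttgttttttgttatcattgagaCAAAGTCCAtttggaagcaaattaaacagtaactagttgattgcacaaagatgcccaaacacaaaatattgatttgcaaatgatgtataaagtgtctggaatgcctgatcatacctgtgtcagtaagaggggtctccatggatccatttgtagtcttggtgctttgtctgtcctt
Cyp3a13: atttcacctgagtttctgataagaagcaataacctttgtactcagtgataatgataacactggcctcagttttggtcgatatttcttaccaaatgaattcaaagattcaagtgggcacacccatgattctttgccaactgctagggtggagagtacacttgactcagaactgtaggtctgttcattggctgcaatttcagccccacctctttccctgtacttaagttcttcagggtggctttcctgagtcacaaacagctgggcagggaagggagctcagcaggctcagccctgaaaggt
Cyp3a25: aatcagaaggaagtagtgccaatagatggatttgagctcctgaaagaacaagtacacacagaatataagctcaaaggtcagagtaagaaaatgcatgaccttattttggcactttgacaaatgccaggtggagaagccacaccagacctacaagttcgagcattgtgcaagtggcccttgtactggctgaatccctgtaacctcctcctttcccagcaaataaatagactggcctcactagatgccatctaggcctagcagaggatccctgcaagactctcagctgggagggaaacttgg
Cyp4f14: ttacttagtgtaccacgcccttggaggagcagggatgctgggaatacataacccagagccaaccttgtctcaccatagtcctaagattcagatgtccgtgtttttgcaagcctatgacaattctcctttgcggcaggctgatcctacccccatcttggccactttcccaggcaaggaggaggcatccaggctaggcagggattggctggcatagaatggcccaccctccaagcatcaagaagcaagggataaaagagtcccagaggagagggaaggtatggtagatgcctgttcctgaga
Ces2e: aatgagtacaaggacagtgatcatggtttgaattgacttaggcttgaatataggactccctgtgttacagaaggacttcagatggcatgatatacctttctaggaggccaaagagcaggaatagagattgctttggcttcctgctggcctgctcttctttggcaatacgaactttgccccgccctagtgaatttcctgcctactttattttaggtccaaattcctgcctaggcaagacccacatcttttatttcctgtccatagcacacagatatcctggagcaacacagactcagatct

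Of the 48 members, 40 matched a RefSeq promoter, with 46 promoters in all. The HNF4 letters, searched on both strands, were in 8.70% of these and in 0.475% of all 32851 promoters. The match began at position -109 from the start in Cyp3a11, -116 in Cyp2c65, -125 in Cyp2c67 and -77 in Cyp2c68, and overlapped no match of the other motifs. The promoters of Cyp2c67 and Cyp2c68 are 76.7% identical base for base without gaps, so their matches are not independent. The TATA box letters TATAAA were in 28.3% of member promoters and 13.6% of all, the GATA letters AGATAA in 21.7% and 11.2%, and the CDX letters TTTATNG in 15.2% and 10.9%. The HNF1 motif was in none of the 46 and in 0.0609% of all. All promoters take in genes of any UMI count, while members had to pass a UMI minimum. These shares therefore cannot show whether the members hold the motifs more often than other genes with as many UMIs. A match describes letters only and is not evidence that a factor binds.

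The 4 genes with HNF4 letters did not share 1 pattern in the RNA or at the promoter. The Cyp3a11 promoter had 14.7 FPM in enterocyte-like and 2.61 in crypt progenitor-like cells, 5.63-fold apart. The Cyp2c65 promoter had 19.6 and 14.4 in the same order, and the Cyp2c68 promoter 7.89 and 5.84, both under 2-fold. Cyp2c67 had no peak.

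Between enterocyte-like and crypt progenitor-like cells, 10 of 44 members had more open promoters in enterocyte-like cells and 8 less open ones, where 5.18% of all genes with such peaks were higher and 21.0% lower. Of the 24 members with a promoter peak that were higher in RNA, 9 were also higher at the promoter and 15 were called in neither direction there. The same share among all genes higher in RNA is not given here, so this count cannot set the members apart from such genes. The 9 were Cyp2c29, Cyp3a11, Cyp2b10, Cyp2c55, Cyp2d22, Cyp1a1, Ces1g, Ces1f and Cyp2c38. The Cyp2b10 promoter had 1020 fragments (51.6 FPM) in enterocyte-like and 279 (9.59 FPM) in crypt progenitor-like cells, 5.38-fold. The Cyp2c55 promoter was 5.38-fold and the Cyp2c29 peaks 6.54-fold higher.

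The genes with large RNA ratios did not all have large promoter ratios. The Cyp3a13 promoter had 57.9 FPM in enterocyte-like and 41.1 in crypt progenitor-like cells, and the Cyp4b1 promoter 14.1 and 13.3, for RNA ratios of 12.6 and 13.6. The Cyp4v3 promoter had 25.7 and 27.9. In these genes the promoter was open in crypt progenitor-like cells at a similar level. Ces1d, Cyp4a32 and Cyp4f15 were lower in enterocyte-like cells in both readouts, Ces1d by 3.63-fold at the promoter. Cyp39a1, 12.7-fold lower in RNA, had 35.8 FPM in enterocyte-like and 43.6 in crypt progenitor-like cells. Cyp2j6 promoter peaks were also lower in enterocyte-like than in crypt progenitor-like cells, and against Paneth-like cells the readouts went in opposite directions, with RNA 3.07-fold higher and promoter peaks 2.18-fold lower in enterocyte-like cells.

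**Figure D5:**
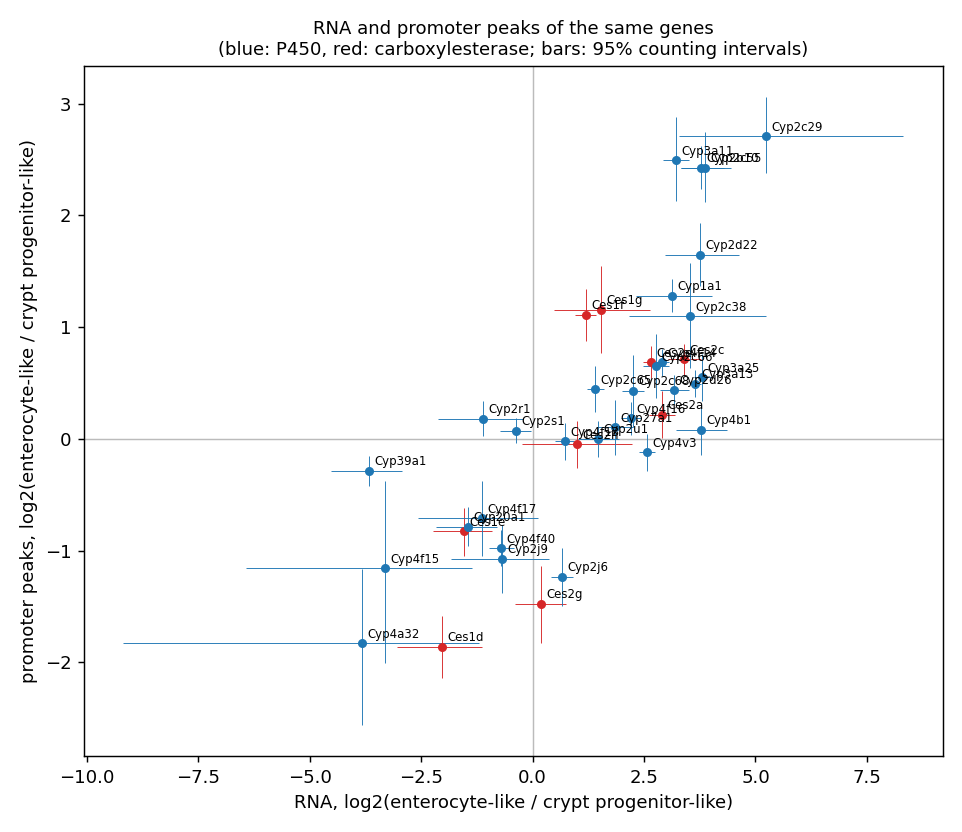
Log2 ratio of enterocyte-like over crypt progenitor-like cells in RNA (x axis) and in promoter peaks (y axis) for 39 members tested in both; blue points are P450 genes, red points carboxylesterases, bars are 95% counting intervals. Cyp2c29, Cyp3a11, Cyp2b10 and Cyp2c55 are high on both axes, while Cyp4b1, Cyp4v3 and Cyp3a13 lie far right and near 0 on the y axis.

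Against the other classes the promoter counts ran the same way. Against goblet-like cells 11 members were higher (all genes 3.80%) and 1 lower (13.1%). Against Paneth-like cells 14 were higher (4.45%) and 4 lower (16.4%). Against enteroendocrine-like cells 14 were higher (4.70%) and 1 lower (20.4%), and against tuft-like cells 17 of 43 were higher (3.92%) and 0 lower (16.2%). The Cyp2b10, Cyp2c55, Cyp3a11, Cyp1a1, Cyp2c29 and Ces1f promoters were higher in enterocyte-like cells in all 5 comparisons. Over the 28 members with at least 200 UMIs, the class with the highest RNA level was also the class with the highest promoter level in 18 (64.3%), where this held for 28.7% of 9422 genes with as many UMIs. That count takes in members whose highest RNA class is not resolved, among them Ces1e. Of the named classes, Cyp4f40 and Ces1e were highest in crypt progenitor-like cells in both readouts. The unnamed cells are outside this ranking, and the RNA of both genes was higher in the unnamed Gsdmc2 and Car4 cluster.

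Along the villus, 0 of 40 members with enough fragments had a more open promoter at the tip and 11 a less open one, where 2.12% of all genes were higher and 6.90% lower. The Cyp3a25 promoter had 6.78 FPM at the tip and 24.2 at the base, 3.57-fold lower, and the Cyp3a13 promoter 60.0 at the tip and 51.2 at the base. The Cyp3a25 promoter was thus lower at the tip, as its RNA was, while the Cyp3a13 promoter was not called in either direction. The Cyp4f40 promoter had 7.12 at the tip and 33.0 at the base, 4.63-fold lower. Cyp2c68, Cyp2c66, Cyp2c55 and Ces1f were lower at the tip in both readouts, at the promoter by 2.98-fold, 2.93-fold, 2.39-fold and 2.07-fold. The Cyp2b10 promoter, in contrast, had 50.9 at the tip and 39.0 at the base, while its RNA was 2.82-fold lower at the tip.

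Between the segment ranges, 0 of 42 members had a more open promoter in the distal range and 5 a less open one (all genes 2.47% higher and 0.842% lower). Only Cyp2c29 and Cyp2c38 were lower in both readouts, the Cyp2c29 peaks with 9.49 FPM in the distal and 27.6 in the proximal range. The Cyp1a1 peaks, in contrast to its RNA, had 44.0 in the distal and 51.3 in the proximal range. The Ces1f promoter had 18.2 in the distal and 21.9 in the proximal range.

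The genes that P450 enzymes depend on were taken from lists of their electron donors and haem supply, their regulators, and the conjugating, oxidising and exporting proteins that act beside them. Por, the electron donor of the microsomal P450 enzymes, had 187 against 49.5 CPM in enterocyte-like against crypt progenitor-like cells, and 304 against 112 CPM at the villus tip against the base. Alas1, which opens haem synthesis, was also higher at the tip, with 118 against 54.4 CPM. Of the 13 genes of that list with enough UMIs, 3 were higher in enterocyte-like than in crypt progenitor-like cells (all genes 14.4%) and 0 lower (34.4%). Por and Alas1 were higher at the tip, as were Cyp3a13, Cyp4f16 and Cyp3a11.

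Of the 17 receptor genes with enough UMIs, 5 were higher (all genes 14.4%) and 3 lower (34.4%) in enterocyte-like than in crypt progenitor-like cells. Nr1i3, which encodes CAR, had 52.5 against 11.3 CPM, and Nr5a2 had 61.1 against 364 CPM in that order. Between villus tip and base 0 of 16 were higher (all genes 7.72%) and 9 lower (20.0%). Nr1h4, which encodes the bile acid receptor FXR, had 68.5 against 451 CPM at the tip against the base, and 389 against 149 CPM in the distal against the proximal range. Nr1i2, which encodes PXR, had 74.3 against 179 CPM at the tip against the base.

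Some conjugating and oxidising enzymes were higher in enterocyte-like cells, lower at the tip or lower in the distal range. Of the conjugation list, 10 of 26 genes were higher in enterocyte-like than in crypt progenitor-like cells, 10 of 23 lower at the tip and 10 of 23 lower in the distal range, where the shares of all genes were 14.4%, 20.0% and 3.58%. Of the other hydrolases and oxidases, 12 of 20 were higher in enterocyte-like cells, 12 of 18 lower at the tip and 8 of 18 lower in the distal range, against the same shares of all genes. Over all 5 lists, the largest differences in enterocyte-like against crypt progenitor-like cells were Slc47a1 (18.6-fold), Akr1b7 (14.8-fold), Sult2b1 (13.3-fold), Xdh (12.8-fold) among higher genes, and Abcc1 (20.7-fold), Rarb (14.1-fold), Abcc4 (8.29-fold), Nr5a2 (5.95-fold) among lower ones. The Rarb ratio rests on 1 against 24 UMIs, with a log2 interval of -9.18 to -1.20. Over all 5 lists, the largest differences at the villus tip against the base were Por (2.71-fold), Alas1 (2.17-fold), Nat2 (2.06-fold) among higher genes, and Maob (28.8-fold), Aldh1a7 (18.9-fold), Ugt1a6a (11.4-fold), Fmo1 (10.2-fold) among lower ones. Few UMIs at the tip lie behind Maob (4 against 238 UMIs, log2 interval -6.74 to -3.48), Aldh1a7 (1 against 39 UMIs, log2 interval -9.58 to -1.68), Ugt1a6a (2 against 47 UMIs, log2 interval -6.60 to -1.58) and Fmo1 (1 against 21 UMIs, log2 interval -8.72 to -0.71), whose order is not resolved. Over all 5 lists, the largest differences in the distal against the proximal range were Nr1h4 (2.61-fold), Abcg2 (2.40-fold) among higher genes, and Ugt2b5 (8.64-fold), Ugt2b35 (6.43-fold), Adh1 (5.84-fold), Aadac (5.12-fold) among lower ones. Maob, a monoamine oxidase, had 5.83 against 168 CPM at the tip against the base. Ugt2b5, a glucuronosyltransferase, had 4.67 against 40.3 CPM and Adh1, an alcohol dehydrogenase, 38.5 against 225 CPM in the distal against the proximal range. Of the efflux transporters, Slc47a1 had 91.2 against 4.89 CPM and Abcc1 2.02 against 41.8 CPM in enterocyte-like against crypt progenitor-like cells, and Abcg2 had 549 against 229 CPM in the distal against the proximal range.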

How the data were processed

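The deposited matrix holds raw counts, made by the authors with Cell Ranger ARC 2.0.2 on mm10, per the submitters' processing notes: 12363 barcodes of 1 mouse by 55401 genes (UMIs, 71697164 in all) and 146191 peaks (197564789 peak counts). Since 87.6% of peak values were even, fragments were taken as their value over 2, rounded up. Barcodes with at least 500 UMIs, 300 genes and 1000 peak counts were kept (9872), with a median of 5591 UMIs, 1547 of them nuclear-encoded. Scrublet marked none as doublets, so doublets remain.

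Clusters (scanpy 1.11.5, Leiden resolution 1, 1500 variable genes chosen by Pearson residuals, scaled log values, 30 principal components, 15 neighbours, 19 clusters) used neither Cyp and Ces genes nor mtDNA genes. Classes were named from marker lists. UMIs were summed per class and divided by nuclear-encoded UMIs. Levels have exact Poisson intervals and ratios conditional binomial ones, all at 95% and for counting error only. With 1 mouse there is no test. A class at 0 UMIs was set to a floor of 3. Ratios were checked on simulated counts with Poisson error only. That check does not cover spread between cells, doublets or RNA of other cells. In the text, members called with at least 50 UMIs over both classes are given, up to 15 in each direction by ratio, with every member of at least 200 UMIs given in all classes, and the up to 4 pathway genes of the largest called ratio in each direction. Pathway genes outside that rule (such as Por against crypt progenitor-like cells, Nr1i3 and Nr1i2) were chosen after their values were seen. Villus and segment scores were averaged over 15 neighbours. Promoter sequences are from RefSeq. The members, lists and rules were chosen with earlier results of these data known.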

Additional observations from a re-analysis of the deposited data

How the results depend on the processing

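With 1 animal, results rest on 1 library pair, and no replicate could be left out. No paired analysis was possible because the labels give 1 mouse and no replicates. Counts below are members under an alternative, out of those with enough UMIs, with the reported count after "not". The percentage in brackets is the share of all genes under the same alternative, which moved as well. For promoter peaks that share is not given. With a minimum of 50 UMIs, 5 of 32 (not 8) were lower against crypt progenitor-like cells (34.1%). Under the same minimum, 3 of 33 (not 5) were lower against goblet-like cells (19.8%) and 0 of 26 (not 2) against Paneth-like cells (14.7%). Lower against enteroendocrine-like cells were 0 of 27 (not 3) (20.6%), and against tuft-like cells 0 of 26 (not 2) (18.3%). In the distal range 5 of 25 (not 9) were lower (2.85%). Thinned to 500 nuclear-encoded UMIs, 2 of 29 (not 8) were lower against crypt progenitor-like cells (31.3%). With the same thinning, 1 of 28 (not 5) was lower against goblet-like cells (16.5%). Against Paneth-like cells 18 of 27 (not 28) were higher (20.2%) and 0 (not 2) lower (8.98%). Lower against enteroendocrine-like cells was 1 of 27 (not 3) (14.1%). Against tuft-like cells 14 of 27 (not 23) were higher (9.37%) and 0 (not 2) lower (10.5%). In the distal range 1 of 24 (not 0) was higher (3.25%) and 3 (not 9) were lower (3.76%). On UMIs of all kinds, 14 of 41 (not 23) were higher against goblet-like cells (2.76%) and 9 (not 5) lower (64.3%). On the same scale, 11 of 35 (not 20) were higher against enteroendocrine-like cells (3.51%) and 5 (not 3) lower (59.9%). At the tip 0 of 27 (not 3) were higher (3.59%). In the distal range 3 of 30 (not 0) were higher (22.3%) and 5 (not 9) lower (0.822%). With 1000 UMIs per cell, 3 of 41 (not 5) were lower against goblet-like cells (20.3%) and 6 of 27 (not 15) at the tip (8.49%). Without cells above 80% mtDNA-encoded UMIs, 3 (not 5) were lower against goblet-like cells, 1 (not 2) were lower against tuft-like cells and 9 (not 15) were lower at the tip. At Leiden resolution 2, 2 (not 5) were lower against goblet-like cells, 9 (not 15) were lower at the tip, 1 (not 0) were higher in the distal range and 14 (not 9) were lower in the distal range. Without the highest 8% of Scrublet scores, 1 of 34 (not 2) was lower against Paneth-like cells (15.3%) and 7 of 26 (not 15) were lower at the tip (9.49%). With clusters from ATAC peaks, 0 of 35 (not 2) were lower against Paneth-like cells (9.51%). With a minimum of 1 UMI, 4 of 48 (not 2) were lower against Paneth-like cells (13.5%) and 6 of 47 (not 3) against enteroendocrine-like cells (20.7%). At 1.5-fold, 1 of 30 (not 0) was higher in the distal range (7.21%) and 15 (not 9) were lower there (7.99%). With the score of each cell alone, 9 of 28 (not 15) were lower at the tip (15.9%). Within the distal range, 5 of 23 (not 3) were higher at the tip (7.06%) and 6 (not 15) were lower there (14.2%). With the distal list lacking Fabp6, Slc51a and Slc51b, 1 of 30 (not 0) was higher in the distal range (3.67%). Within the upper 2 villus zones, 1 of 20 (not 0) was higher in the distal range (4.48%) and 3 (not 9) were lower there (5.16%). With peaks within 250 bases, 2 (not 1) had lower promoter peaks against enteroendocrine-like cells and 1 (not 0) had lower promoter peaks against tuft-like cells. On peak counts as deposited, 3 (not 1) had lower promoter peaks against enteroendocrine-like cells, 2 (not 0) had lower promoter peaks against tuft-like cells and 1 (not 0) had higher promoter peaks at the tip. The cause of these moves was not tested. Of 1253 alternative values of 103 named ratios, 1251 kept their sign; the exceptions were the log2 tip ratios of Cyp4v3 at Leiden resolution 2 (0.13) and of Cyp2c66 within the distal range (0.0807). Outside these, the Cyp2c68, Cyp2u1 and Cyp4f13 ratios against Paneth-like cells changed sign on UMIs of all kinds. After the data were seen, 3 alternatives were added: leaving out the doublet-rich clusters, counting the unnamed low-UMI cluster as enterocyte-like, and stem-like cells alone, and none moved a count of members by over 1.5 times. Of the named ratios, the first moved 24 of 38 beyond their counting intervals and the last 11 of 20, with no change of sign. Depth limits members under 50 UMIs.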

Other observations

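Of the cells outside the named classes, the largest cluster (1398 cells, led by H2-Bl and Tmprss15, median of 461 nuclear-encoded UMIs) had 927 CPM of Cyp3a13, 539.6 of Cyp3a25, 335 of Cyp4f14 and 202 of Ces2e, and 89.7% of its UMIs came from mtDNA. Its enterocyte markers summed to 28197 CPM. The cluster of 341 cells led by Oat and ribosomal protein genes had 285 CPM of Cyp3a13 and 127 of Cyp3a25. Cyp3a13 stood at 155 CPM (interval 62.5 to 320.2) in the 28 lymphocyte-like cells, a level at which RNA of other cells was not told apart from their own.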
